A study of Mus musculus with 12 samples.

Results

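The clustered protocadherin locus was defined as mouse chromosome 18 from 36900000 to 37900000 on the build mm10 (GRCm38), a window of 1 Mb. Every H3K27ac peak deposited for the 6 ChIP-seq libraries that lay in this window was taken, and peaks that overlapped by 1 bp or more were merged. The 1989 peaks gave 810 regions, out of 2436862 regions that the same merge gave over the whole genome. The locus was picked because gene loci in it were more widely covered by peaks in Azin2-/- than in wild-type libraries, so the genotype values below are descriptions and carry no test.

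H3K27ac is the acetylation of lysine 27 on histone H3, a mark of active promoters and enhancers. It was profiled in adipocyte progenitors isolated from the subcutaneous fat of Azin2-/- mice (replicates 1, 2 and 8) and wild-type mice (replicates 1, 2 and 2b). Azin2 encodes antizyme inhibitor 2, which frees the polyamine-making enzyme ornithine decarboxylase from its inhibitor antizyme. All 6 cultures had 1 week of growth (glucose at 4.5 g/l, serum at 10%), 2 days of adipogenic induction with insulin (5 µg/ml), IBMX (0.5 mM), dexamethasone (1 µM) and rosiglitazone (1 µM), and 5 further days of insulin. Mouse ages and the design of the deleted allele were not given in the sources used here. Nor do the labels tell whether the 3 libraries of each genotype had separate animals behind them.

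Clustered protocadherins are cell adhesion proteins best known from neurons, where each cell uses a small choice of isoforms that lets it tell its own branches from those of other cells. In the alpha and gamma clusters, each variable exon has a promoter of its own and is spliced to a shared set of constant exons at the far end of the cluster, whereas a beta gene has no constant exons. Which promoter is used depends on DNA methylation and on loops that CTCF and cohesin form with distal enhancers. The reference gave 58 clustered genes here: 12 alpha genes and the 2 alpha C-type genes Pcdhac1 and Pcdhac2, 22 beta genes, 12 gamma A genes, 7 gamma B genes and 3 gamma C-type genes. Pcdhgb8, counted among the gamma B genes, is annotated as a pseudogene.

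A peak in these lists is an interval the authors' caller placed, with a fold over local background and a p-value. Lists ran from 742335 to 1217494 peaks and reached down to very weak ones, so the 30000 peaks of smallest p in each library were used as its strong peaks. The fold and p of each peak imply a whole number of overlapping fragments at the summit, called the pileup. That held for 100% of the 1989 peaks within 0.001 on the log10 scale, against 4.17% after a random shift of p. Read totals are not given, and the implied local background stands in for depth. Its median in the locus was 0.302, 0.480 and 1.04 fragments in Azin2-/- replicates 1, 2 and 8, and 0.165, 0.440 and 0.303 in wild-type replicates 1, 2 and 2b, so a pileup is not on one scale across libraries. Azin2-/- replicate 1 stood apart, with 54847 peaks at a q of 0.05 or less against 13843 to 21544 in the others. Counts are therefore given per library throughout.

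The merged regions were many and mostly weak. They covered 52.9% of the window, with a median width of 480.5 bp and a range of 158 to 6112 bp. Of the 810 regions, 333 were seen in 1 library alone and 22 in all 6. Strong peaks lay in 72 of the regions, and the other 738 held weaker peaks. No region held a strong peak in all 6 libraries or in 5. A single region had one in 4 libraries, 8 regions had one in 3, 5 had one in 2, and 58 had one in 1 library. At the window's bounds no peak was cut through, and the peaks just inside had folds of 1.31 to 2.39 and those just outside 1.38 to 2.51, so neither bound divided a strong peak.

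Strong peaks in the locus numbered 37, 13 and 13 in Azin2-/- replicates 1, 2 and 8. In wild-type replicates 1, 2 and 2b they numbered 8, 12 and 13. The Azin2-/- mean of 21 ± 13.9 (SD, n = 3) against 11 ± 2.65 (SD, n = 3) thus rests on Azin2-/- replicate 1, and the other Azin2-/- libraries equalled the highest wild-type library. The largest pileup in the locus was 23, 12 and 11 in the Azin2-/- libraries and 4, 6 and 4 in the wild-type libraries, groups that do not overlap. The best genome-wide rank of a locus peak was 489, 1391 and 3346 in Azin2-/- and 4016, 7375 and 12333 in wild-type. Peaks at a q of 0.01 or less numbered 35, 8 and 4 in Azin2-/- and 1 in each wild-type library. Genome-wide they numbered 26146, 15091 and 9798 in Azin2-/- replicates 1, 2 and 8, and 6858, 12867 and 12601 in wild-type replicates 1, 2 and 2b. Cover at this q chose the locus, so nothing is read from its counts. The values of Azin2-/- replicate 8 stand beside the highest local background, and the part of depth in the differences of this paragraph was not tested.

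Weak wild-type peaks were often indistinguishable from each other. In wild-type replicate 2b, 9 of the 13 strong peaks of the locus had the same p, which 9566 peaks genome-wide shared, and in wild-type replicate 2 it was 6 of 12. These ties come from small whole-number pileups: the median pileup of a strong locus peak was 3 in wild-type replicates 1 and 2b and 4.5 in replicate 2, against 6, 6 and 8 in the Azin2-/- libraries. A wild-type strong peak here thus rests on few fragments, and its place in the list is uncertain.

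Presence was described at the variable end of each gene, taken as the gene boundary not shared with the rest of its cluster, from 1 kb before it to 3 kb after it. A strong peak lay there at 26, 8 and 9 of the 58 genes in Azin2-/- replicates 1, 2 and 8, and at 2, 3 and 6 genes in wild-type replicates 1, 2 and 2b. The means were 14.3 ± 10.1 and 3.67 ± 2.08 (SD, n = 3 each), and the nearest libraries, Azin2-/- replicate 2 and wild-type replicate 2b, were 2 genes apart. They met at 6 genes when peaks tied in p with the last of the 30000 were left out, an alternative chosen after seeing the data. Without Azin2-/- replicate 1 the difference of the means fell from 10.7 to 4.83 genes. For 25 genes no library had a strong peak at the variable end. At least 2 Azin2-/- libraries had one at 10 genes, and at least 2 wild-type libraries at 0 genes.

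A smaller share of variable ends than of gene starts at large held a strong peak, in each of the 6 libraries. Outside chromosome 18, the same window around 17273 reference starts held a strong peak for 51.4, 38.3 and 37.3% of genes in the Azin2-/- libraries and for 30.5, 35.3 and 40.9% in the wild-type libraries. Of those starts, 0.874% had a strong peak in all Azin2-/- and no wild-type library, and 0.0174% the reverse. At the protocadherin variable ends these counts were 3 (Pcdhac2, Pcdhgb6 and Pcdhgb7) and 0. Pcdhgb7 leaves that count when tied peaks are left out, as its peak in Azin2-/- replicate 2 is one of 12257 tied at the end of the list. Cover that did not overlap between genotypes and was higher in Azin2-/- occurred at 4 variable ends, those 3 and Pcdhgb8, where 2.94% of reference starts did the same. Lower cover without overlap occurred at 0 variable ends and at 0.932% of reference starts. Since the locus was chosen on this contrast, nothing further is read from these shares.

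**Figure D1:**
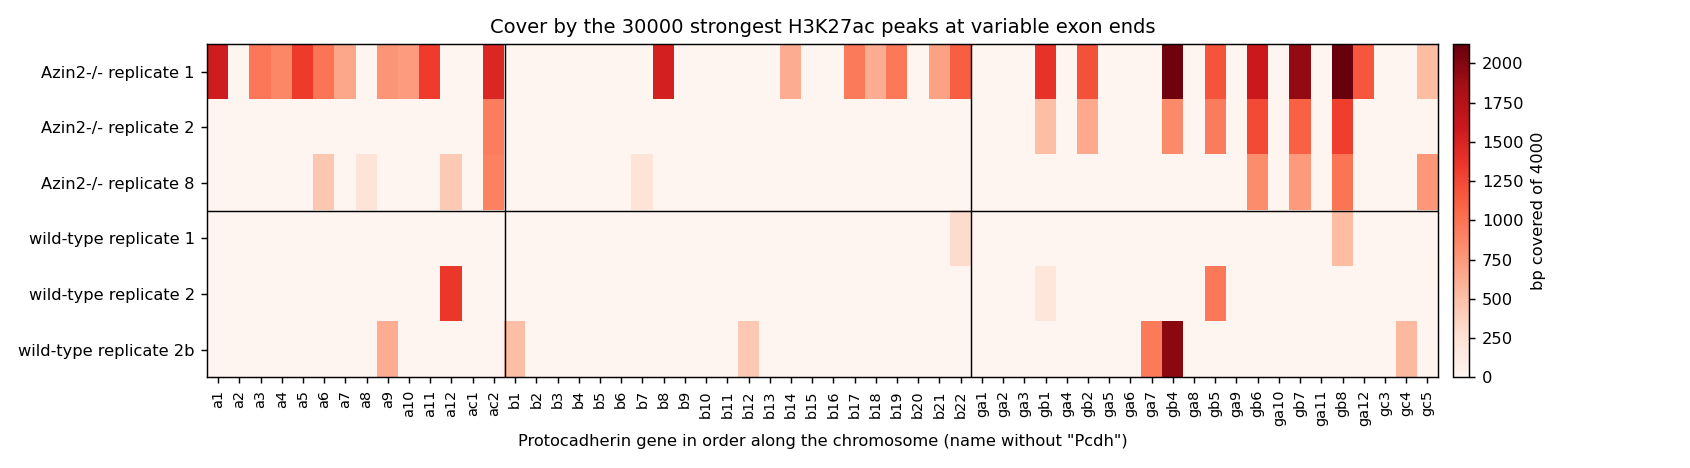
Bases covered by strong H3K27ac peaks (the 30000 of smallest p per library) in the 4000 bp window at the variable end of each of 58 clustered protocadherin genes, in chromosomal order, with 1 row per library and vertical lines between the alpha, beta and gamma clusters. The gamma B genes gb1 to gb8 form evenly spaced marks in Azin2-/- replicates 1 and 2, ac2 is marked in all 3 Azin2-/- libraries, and alpha and beta marks come mostly from Azin2-/- replicate 1.

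The gamma B genes carried most of what the Azin2-/- libraries shared. A strong peak lay at 7, 7 and 3 of the 7 gamma B variable ends in Azin2-/- replicates 1, 2 and 8, and at 1, 2 and 1 in wild-type replicates 1, 2 and 2b (5.67 ± 2.31 against 1.33 ± 0.577, SD, n = 3 each). Azin2-/- replicate 2 had 5 when tied peaks were left out, since those at Pcdhgb4 and Pcdhgb7 lie in the tie. The gamma A genes lie among them, mostly in alternation, and share the same constant exons. There the counts were 1, 0 and 0 of 12 in Azin2-/- and 0, 0 and 1 in wild-type. Gamma B and gamma A proteins differ in their variable exon, which encodes the extracellular cadherin repeats and the membrane span.

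Pcdhgb6 and Pcdhgb8 were marked in every Azin2-/- library, and Pcdhgb7 was so only with the tied peak of replicate 2 kept. At Pcdhgb6 (gene span 37742094 to 37841873) strong peaks covered 1587, 1236 and 836 bp in Azin2-/- replicates 1, 2 and 8 and 0 bp in each wild-type library. The pileups there were 15, 9 and 10. At Pcdhgb7 (37751619 to 37841870) the Azin2-/- libraries had covers of 1929, 1109 and 741 bp and the wild-type libraries had 0 bp, with pileups of 15, 4 and 9. The library in which it was weakest was Azin2-/- replicate 2, with a pileup of 4. In wild-type replicate 2 the strongest peak in this window also had a pileup of 4 and did not reach the strong list. It lay outside the region that holds the Azin2-/- peaks (37753068 to 37754814). In that region the wild-type pileups were 1, 2 and 2 in replicates 1, 2 and 2b. At the pseudogene Pcdhgb8 (37761801 to 37840489) the cover was 2123, 1305 and 979 bp in Azin2-/- and 515, 0 and 0 bp in wild-type. It was the single gene with a strong peak in 4 libraries, and its wild-type replicate 1 peak, with a pileup of 4, was the best-ranked peak of that library in the locus.

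The remaining gamma B genes were marked in Azin2-/- replicates 1 and 2 and lacked a strong peak in replicate 8. At Pcdhgb2, covers of 1202 and 646 bp had pileups of 23 and 6, and no wild-type library had a strong peak. Its 23 fragments in Azin2-/- replicate 1 were the largest pileup of the locus. At Pcdhgb5, covers of 1194 and 943 bp with pileups of 15 and 12 stood beside 963 bp with a pileup of 6 in wild-type replicate 2. At Pcdhgb4, covers of 2078 and 852 bp stood beside 1959 bp in wild-type replicate 2b, where the pileup was only 3. At Pcdhgb1, covers of 1389 and 499 bp stood beside 190 bp in wild-type replicate 2. At these 4 genes the genotypes therefore overlapped.

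Over all deposited peaks, weak ones included, wild-type libraries also had a peak at most gamma B ends: 5, 7 and 7 of 7 in replicates 1, 2 and 2b, against 7, 7 and 6 in Azin2-/- replicates 1, 2 and 8. Whether a peak was listed at all thus differed little. The median pileup of the strongest peak at a gamma B end was 15, 7 and 8 in Azin2-/- and 2, 3 and 3 in wild-type. At gamma A ends, measured in the same libraries, it was 2, 2 and 4 in Azin2-/- and 1, 2 and 2 in wild-type. Within each library the gamma B median was thus the higher one, by 1 fragment in wild-type replicates 1, 2 and 2b. Because the libraries differ in background, these pileups do not by themselves give the size of a genotype difference.

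**Figure D2:**
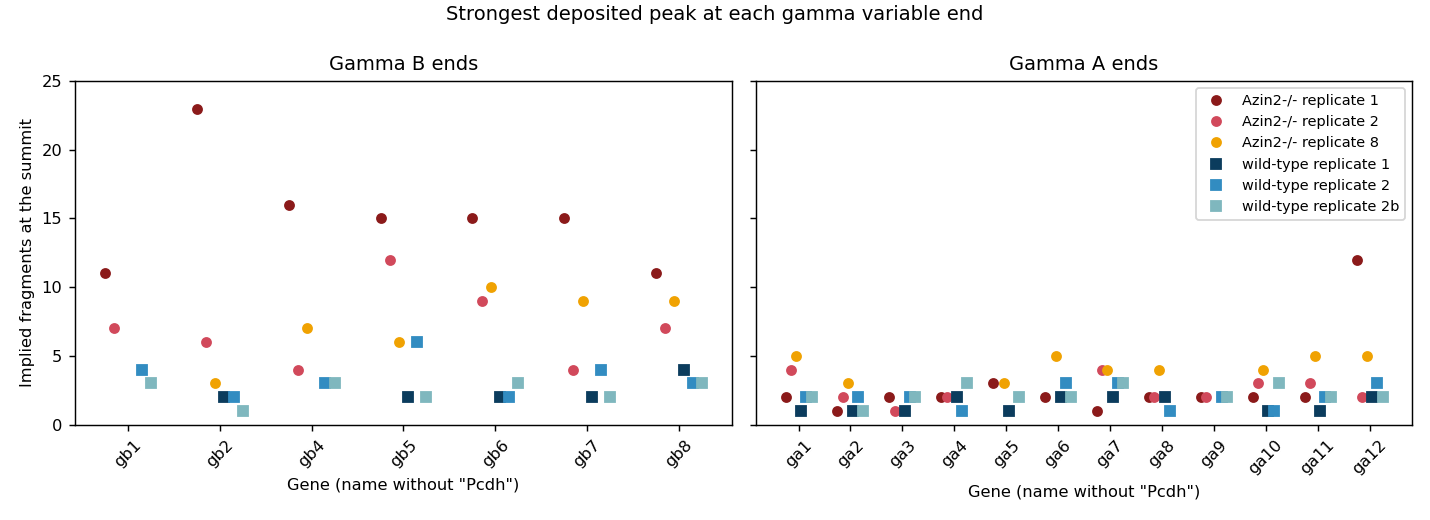
Implied number of fragments at the summit of the strongest deposited peak at each gamma B (left) and gamma A (right) variable end, 1 point per library and no point where no peak was listed. Azin2-/- points at gamma B ends reach 23, while wild-type points stay at 6 or below, and at gamma A ends most points of both genotypes lie at 5 or below.

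Most gamma B peaks sat at a like position along their genes. Summits of strong peaks lay 1650 to 1915 bp past the gene start in Azin2-/- replicate 2 (7 of 7 summits at 1000 bp or more) and 1748 to 1834 bp past it in replicate 8 (3 of 3). In Azin2-/- replicate 1, 7 of 9 summits lay at 1000 bp or more, with a median of 1830 bp. The 4 wild-type summits lay 1737 bp past the start at Pcdhgb8, 1873 bp at Pcdhgb4, 1898 bp at Pcdhgb5 and, away from the others, 507 bp at Pcdhgb1. At reference starts outside chromosome 18 the median summit distance was 154.5 to 204 bp, and 8.04 to 11.6% of summits lay at 1000 bp or more. Most gamma B peaks were thus placed inside the gene, away from the annotated start. Counting weak peaks too, the strongest peak of a gamma B end had its summit between 1500 and 2100 bp in 7 of 7, 7 of 7 and 4 of 6 genes in Azin2-/- and in 3 of 5, 5 of 7 and 5 of 7 in wild-type. For gamma A ends this was so for 4 of 12, 3 of 10 and 1 of 9 genes in Azin2-/- and for 1 of 11, 0 of 11 and 0 of 11 in wild-type.

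**Figure D3:**
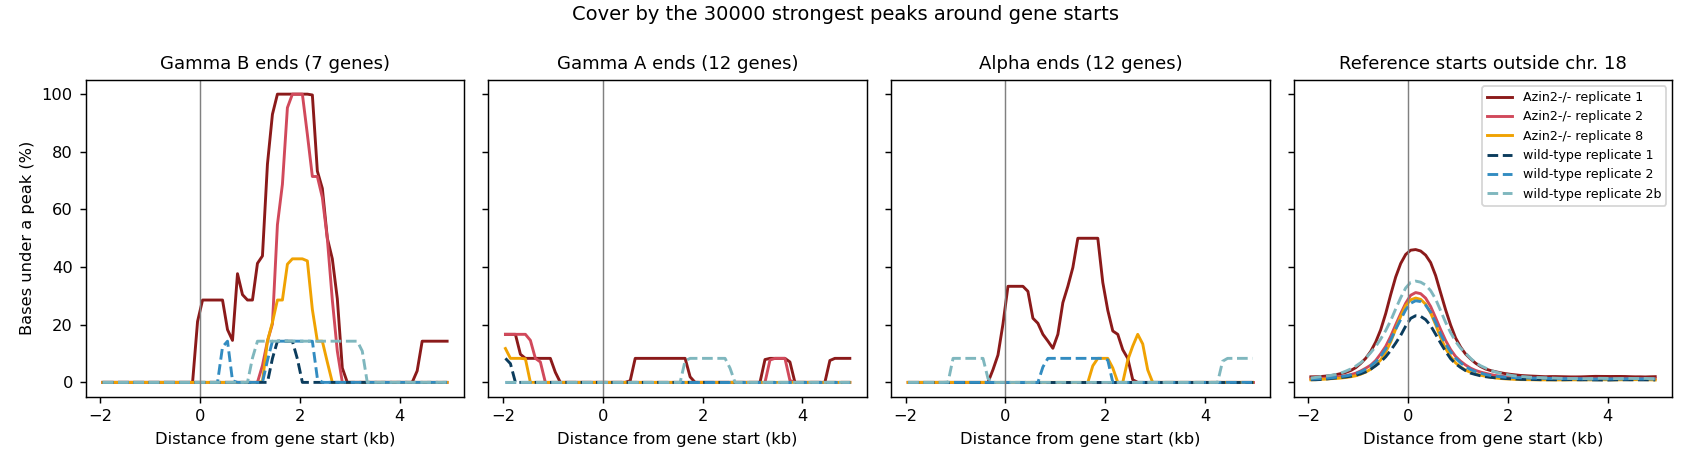
Percent of bases under strong peaks in 100 bp steps from 2 kb before to 5 kb after the gene start, for gamma B, gamma A and alpha genes and for reference starts outside chromosome 18, 1 line per library (Azin2-/- solid, wild-type dashed). In Azin2-/- replicates 1 and 2 the gamma B cover reaches 100% at 1500 to 1900 bp past the start, whereas reference starts peak at 100 to 200 bp.

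Variable exons of a subfamily resemble each other in sequence, and the treatment of reads that match several places was not given in the sources used here. Peaks at like positions in like exons could therefore share reads, and the per-gene values of the gamma B genes are uncertain for that reason. They are not independent of each other.

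Pcdhac2, a C-type gene at the end of the alpha array, differed from the gamma B genes in position. Strong peaks at its variable end (gene span 37143678 to 37187663) covered 1473, 931 and 908 bp in Azin2-/- replicates 1, 2 and 8 and 0 bp in each wild-type library. The pileups were 18, 6 and 11. Weaker peaks with pileups of 2, 4 and 1 were listed there in wild-type replicates 1, 2 and 2b. The Azin2-/- summits lay 289, 209 and 244 bp past the gene start, close to where peaks at other gene starts lie. It gave the best-ranked locus peak of Azin2-/- replicate 8, and the region that holds it ran from 37143203 to 37145419.

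Of the other C-type genes, which in neurons are made in many cells rather than chosen by chance, Pcdhac1 and Pcdhgc3 had no strong peak at the variable end in any library. At Pcdhgc5 the cover was 521, 0 and 757 bp in Azin2-/- and 0 bp in each wild-type library, with pileups of 10 and 9 and summits 2539 and 2552 bp past the start. At Pcdhgc4 the only strong peak, of 542 bp and a pileup of 4, was in wild-type replicate 2b.

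The 12 alpha genes were marked mainly in 1 library. Strong peaks lay at 9, 0 and 3 alpha variable ends in Azin2-/- replicates 1, 2 and 8 and at 0, 1 and 1 in wild-type replicates 1, 2 and 2b, and the best of those in Azin2-/- replicate 1 was at Pcdha1, with 1553 bp and a pileup of 9. Its summits at Pcdha1, Pcdha3, Pcdha4, Pcdha5, Pcdha9 and Pcdha11 lay 1383 to 1681 bp past the start, and further summits at Pcdha5, Pcdha6, Pcdha7 and Pcdha10 lay 157 to 351 bp past it. Pcdha6 was the sole alpha gene with a strong peak in 2 Azin2-/- libraries, 986 bp in replicate 1 and 445 bp in replicate 8. At Pcdha12 the larger cover was wild-type, 1357 bp in replicate 2 against 429 bp in Azin2-/- replicate 8.

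The beta genes, which have no constant exons, also drew on Azin2-/- replicate 1. Counts of variable ends with a strong peak were 7, 0 and 1 of 22 in Azin2-/- and 1, 0 and 2 in wild-type. In Azin2-/- replicate 1 these were Pcdhb8, Pcdhb14, Pcdhb17, Pcdhb18, Pcdhb19, Pcdhb21 and Pcdhb22, with pileups of 5 to 8 and summits 1757 to 2194 bp past the start. Azin2-/- replicate 2 had none of them, and no beta gene had a strong peak in 2 libraries of the same genotype.

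Cover by segment, not scaled to equal totals, overlapped between the genotypes in each of the 3 arrays. The gamma variable array (37660775 to 37822545) was covered by strong peaks over 13733, 6991 and 3865 bp in Azin2-/- replicates 1, 2 and 8. In wild-type replicates 1, 2 and 2b it was 515, 1153 and 4084 bp. The means were 8196 ± 5043 and 1917 ± 1903 bp (SD, n = 3 each), and the groups overlapped, since wild-type replicate 2b lay above Azin2-/- replicate 8. Scaled to equal total cover these libraries stood in the other order, at 3393 and 4252 bp, so the overlap depends on the scaling. Without Azin2-/- replicate 1 the difference fell from 6279 to 3511 bp. The alpha variable array was covered over 11549, 931 and 2635 bp in Azin2-/- and 0, 2120 and 717 bp in wild-type, again overlapping. The beta cluster was covered over 7347, 545 and 216 bp against 477, 513 and 3352 bp.

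The constant section of the gamma cluster ran the other way. It was taken from 3 kb past the last variable end to 5 kb past the shared gene end, 37822546 to 37846873. Strong peaks covered 717, 1193 and 228 bp of it in Azin2-/- replicates 1, 2 and 8, and 2359, 5377 and 880 bp in wild-type replicates 1, 2 and 2b. The means were 713 ± 483 and 2872 ± 2292 bp (SD, n = 3 each), and Azin2-/- replicate 2 lay above wild-type replicate 2b. Without wild-type replicate 2 the difference shrank from -2159 to -906.8 bp. At a q of 0.01 or less it changed sign, to 473.7 bp higher in Azin2-/-. The covers were then 0, 1193 and 228 bp in Azin2-/- replicates 1, 2 and 8 and 0 bp in each wild-type library. In both lists the 228 bp of replicate 8 are the end of the peak at the Pcdhgc5 variable end, which reaches into the section. The constant section of the alpha cluster had 1415, 0 and 0 bp in Azin2-/- and 634, 0 and 453 bp in wild-type.

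Within the gamma section, the region from 37833948 to 37836641 was the only one in the locus with a strong peak in all wild-type and no Azin2-/- library, which held for 0.0325% of the 126293 regions with a strong peak genome-wide. Its cover was 1288, 688 and 880 bp in wild-type replicates 1, 2 and 2b. The pileups were close, however: 3, 5 and 4 in wild-type against 2, 4 and 3 in the weaker peaks that the Azin2-/- libraries had there. They overlap, since Azin2-/- replicate 2 had 4 fragments there and wild-type replicate 1 had 3. The region of largest mean strong cover in this section, 37839598 to 37845709, had 711 bp in wild-type replicate 1 and 3461 bp in replicate 2. In Azin2-/- replicate 2 it had 1193 bp. Through weak peaks alone this region reaches into the span of Diaph1, a formin that nucleates actin, whose annotated span begins at 37843601. Its strong peaks end at 37843309, before that span.

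Set per length, strong peaks covered 14.98, 7.51 and 3.77% of the gamma variable windows in Azin2-/- replicates 1, 2 and 8, and 2.95, 4.90 and 0.937% of the gamma constant section. The 0.937% of replicate 8 is the end of the peak at the Pcdhgc5 variable end. In wild-type replicates 1, 2 and 2b the variable windows were covered to 0.587, 1.31 and 3.93% and the constant section to 9.70, 22.1 and 3.62%. The variable end was thus the more widely covered one in all 3 Azin2-/- libraries, by 12.04, 2.60 and 2.84 percentage points. In wild-type the difference was -9.11, -20.8 and 0.313 points. This order depends on the window and the list: with 1 kb on each side of the start, which leaves out most gamma B summits, the Azin2-/- differences were 2.74, -4.90 and -0.937 points. For Azin2-/- replicate 2 it was -3.92 points with 60000 peaks, -4.73 over all peaks, and 0.370 at a q of 0.05 or less or with tied peaks left out. In the alpha cluster the variable windows exceeded the constant section in 5 libraries, all but wild-type replicate 1, where the values were 0 and 1.34%. The distances between variable windows held little: 0 to 0.857% of bases in the gamma array over the 6 libraries.

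**Figure D4:**
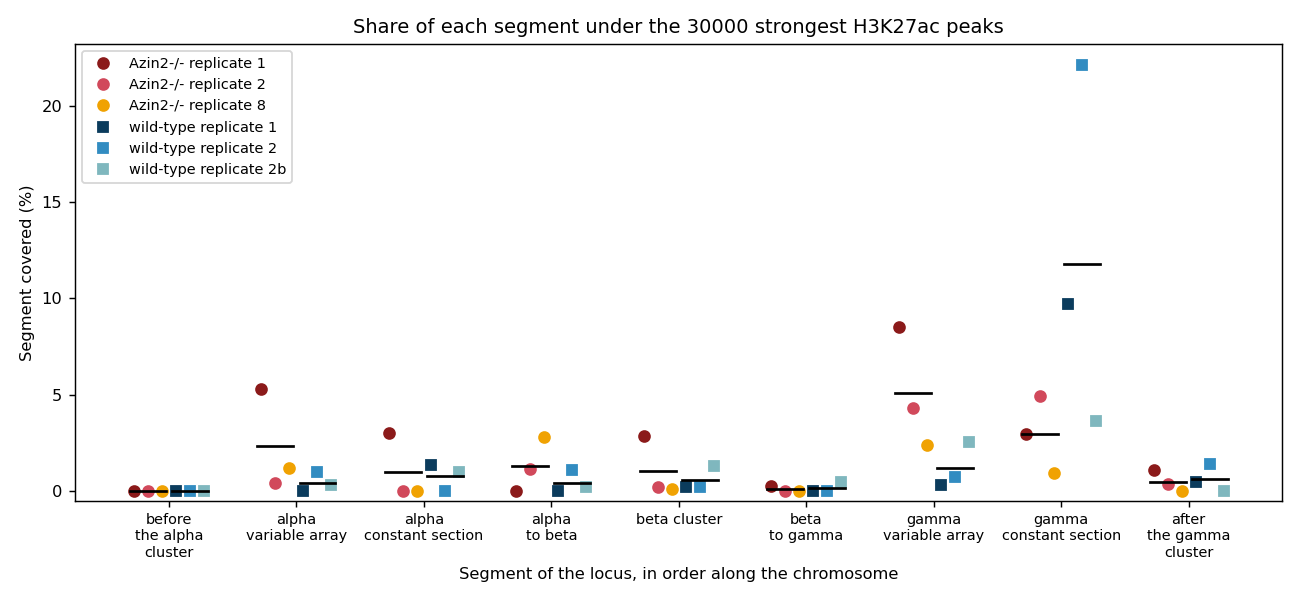
Percent of each of 9 segments of the locus under strong peaks, 1 point per library with a bar at the mean of each genotype (Azin2-/- left, wild-type right in each pair). Azin2-/- replicate 1 is high in the alpha, beta and gamma arrays, and wild-type replicates 1 and 2 are high in the gamma constant section, at 9.70 and 22.1%.

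By region, 42 of the 72 regions with a strong peak had it in Azin2-/- libraries alone, 23 in wild-type libraries alone and 7 in both, where the shares genome-wide were 41.6% Azin2-/- alone and 46.7% wild-type alone. Regions marked in every Azin2-/- library and in no wild-type one numbered 3, at Pcdhac2, Pcdhgb6 and Pcdhgb7 (37143203 to 37145419, 37743189 to 37744840 and 37753068 to 37754814), and 0.417% of regions genome-wide did so. The one at Pcdhgb7 rests on the tied peak of Azin2-/- replicate 2. Across the genome, limma on log2 scaled cover called 0 of 22205 regions after Benjamini-Hochberg adjustment (0% in each direction), while 899 had an unadjusted p under 0.05 on the Azin2-/- side and 324 on the wild-type side. Of the members, 16 reached the minimum cover for that fit. Cover without overlap was higher in Azin2-/- for 4 of these (5.22% of all regions) and lower for 1 (2.62%). Those at Pcdhac2, Pcdhgb6 and Pcdhgb7 had no wild-type cover and reached the minimum through Azin2-/- alone. The 1 lower region reached it through wild-type alone. Nothing is therefore read from these counts.

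Counted over whole gene loci (the gene body with 5 kb on each side), limma called 0 of 11667 genes, and the unadjusted p was under 0.05 for 506 on the Azin2-/- side and 249 on the wild-type side. Of 57 protein-coding clustered genes, 36 were tested and their median log2 difference was 0.64, against 0.07 over all genes. Cover without overlap was higher in Azin2-/- for 2 of them (6.72% of all genes) and lower for 0 (4.93%). The gamma genes share their constant section and most of their span, so this is close to 1 value read many times. For Pcdhgc3, Pcdhgc4 and Pcdhgc5 the log2 difference was -1.09. Scaled covers were 1101 ± 115 bp and 3378 ± 2262 bp for Azin2-/- and wild-type (SD, n = 3 each). Azin2-/- replicate 2 (1224 bp) lay above wild-type replicate 2b (1181 bp). These loci hold the constant end and also the strong peaks at the Pcdhgc4 and Pcdhgc5 variable ends. The direction turned at a q of 0.01 or less, where the log2 difference was 1.47. Covers were then 264.9, 1190 and 1548 bp in Azin2-/- replicates 1, 2 and 8 and 0 bp in each wild-type library. In Azin2-/- replicates 1 and 8 this cover came from the peak at the Pcdhgc5 variable end. That of replicate 2 lay in the constant section. With peaks at a q of 0.01 or less, 22 of 9435 gene loci (0.233%) were called higher and 4 (0.0424%) lower. Of 35 clustered genes tested there, 15 were called higher, all in the gamma cluster, and these are the values that chose the locus. Cover without overlap was higher in Azin2-/- for 35 (4.94% of all genes) and lower for 0 (7.05%). At this q no wild-type library had cover in the alpha array or its constant section, nor at Pcdhgc3, Pcdhgc4 and Pcdhgc5. Those members reached the minimum mean cover for the fit through Azin2-/- alone, so nothing is read from this count. For Pcdhga1, whose span takes in the array, scaled covers were then 6982, 6210 and 4399 bp in Azin2-/- and 1170, 1127 and 0 bp in wild-type.

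How many peaks were used decided what was seen. Among the 5000 strongest peaks, gamma B ends held one at 1, 2 and 0 genes in Azin2-/- replicates 1, 2 and 8 and at 1, 0 and 0 in wild-type. Among the 15000 strongest they held one at 7, 5 and 3 genes against 1, 1 and 0. With 60000 peaks the counts were 7, 7 and 4 against 2, 3 and 1. At a q of 0.05 or less they were 7, 5 and 3 against 1, 1 and 0. The groups did not overlap at any of the lengths from 15000 to 60000 nor at either q threshold. They did overlap among the 5000 strongest and over all peaks. Cover at the smaller q threshold chose the locus, and the other lists are cuts of the same peaks at other lengths. The separation of the groups is therefore not independent of that choice, and nothing further is read from it.

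**Figure D5:**
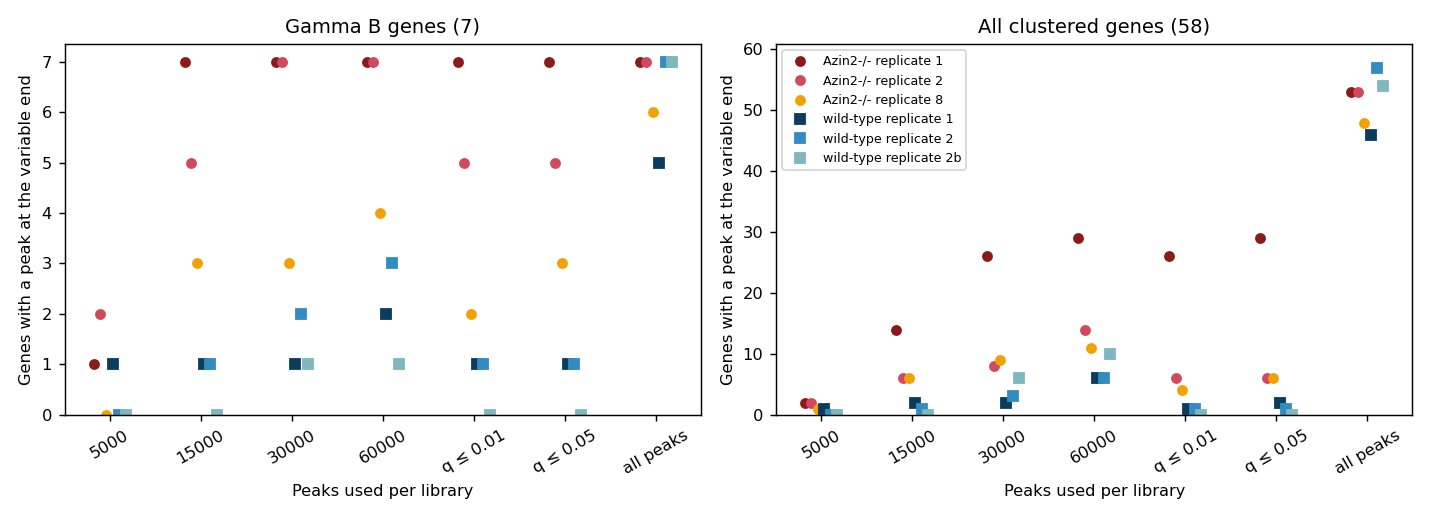
Number of gamma B genes (left, of 7) and of all clustered genes (right, of 58) with a peak at the variable end, 1 point per library, for the 5000, 15000, 30000 and 60000 strongest peaks, for peaks at 2 q thresholds and for all deposited peaks. Azin2-/- libraries lie above wild-type libraries from 15000 to 60000 peaks, and the order is gone over all peaks.

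Genes around and inside the locus were compared by the same gene-locus cover. For Diaph1 it was 2044 ± 581 bp against 2954 ± 1953 bp (Azin2-/- against wild-type, SD, n = 3 each), a log2 difference of -0.31, and at least 1 of its ends had a strong peak nearby (1 kb or less) in all 6 libraries. Taf7, a subunit of the general transcription factor TFIID, and Slc25a2, a mitochondrial carrier, lie between the beta and gamma clusters and had none in any library. Of 28 genes within 500 kb on each side, 12 were tested and 0 called, with a median log2 difference of 0.74. The smallest p were those of Hdac3, a histone deacetylase (2475 ± 394 against 870 ± 199 bp, log2 difference 1.12), and Rell2 (1220 ± 308 against 0 bp), both just past the gamma cluster. Neither passed, with limma adjusted p = 0.743 for each. Rell2 had no wild-type cover and reached the minimum cover for the fit through Azin2-/- alone, so nothing is read from its difference. On the wild-type side the smallest p were those of Slc4a9 (log2 difference -0.39) and Rnf14 (-0.19).

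Protocadherin genes outside the clusters had a mixed pattern. Of 12, 9 were tested, 0 called, and 6 differences were positive with a median of 0.33. Pcdh19, an X-linked adhesion gene, was covered over 1013 ± 1088 bp against 3291 ± 711 bp (log2 difference -1.61, limma adjusted p = 0.743). Pcdh11x was at -1.22, and Pcdh1, which lies past the gamma cluster, and Pcdh10 were at 1.18 each. Known regulators of the clusters, among them Ctcf, the cohesin loader Mau2 and the repressors Smchd1 and Setdb1, gave no call either: 17 of 18 were tested, the median was 0.03, and 10 had a strong peak at a gene end in all 6 libraries. Among them were differences for Stag2 (-1.07), a cohesin subunit, Mau2 (0.59) and Dnmt3b (0.56), a DNA methyltransferase. Of the genes outside the window, Crb3, Ndufaf8 and Lmx1b had the cover most like that of the gamma cluster over the 6 libraries (Pearson r 0.991, 0.991 and 0.990, n = 6, picked from 11667 genes).

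Marker lists of other cell types were short, and their counts of marked genes differed between the genotypes in part. The share of all genes was not counted by the same measure. In the different window at reference starts it was 51.4, 38.3 and 37.3% in Azin2-/- replicates 1, 2 and 8. In wild-type replicates 1, 2 and 2b it was 30.5, 35.3 and 40.9%. Nothing is therefore read from the marker counts. A gene end with a strong peak nearby was found at 3, 2 and 2 of 6 neuron markers in Azin2-/- replicates 1, 2 and 8 and at 0, 1 and 0 in wild-type replicates 1, 2 and 2b. Snap25 and Stmn2 had none in any library. For 5 Schwann cell markers the counts were 3, 2 and 1 against 0, 2 and 0, and for 4 muscle markers 3, 3 and 2 against 0, 0 and 2. For 4 endothelial markers they were 1, 1 and 0 against 0 in each, and for 4 epithelial markers 2, 1 and 2 against 2, 1 and 1. Immune markers, 4 in number, had none in any library. Adipocyte markers, 8 in number, had 4, 4 and 3 against 5, 3 and 4, with Cebpa, Plin1 and Fasn marked in all 6 libraries and Adipoq and Cd36 in none. For 11 progenitor markers the counts were 2, 1 and 0 against 5, 1 and 3, and Pdgfra, Ly6a, Dpp4 and Pi16 had none in any library. The part of other cell types in the protocadherin values was not tested. In bulk chromatin, a larger share of cells with a mark and more of the mark per cell cannot be told apart.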

How the data were processed

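Peak lists of 6 H3K27ac ChIP-seq libraries were analysed, and the 6 input libraries were not analysed here. Per the submitters' processing notes, the lists are on mm10 (GRCm38). Aligner, peak caller, control and the treatment of duplicate or multiply matching reads were not given in the sources used here. Beside its position, the authors deposited for each peak a score, a fold ratio over background and the −log10 of its p-value and of its q-value. They were used only within a list.

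The members and gene lists were chosen with earlier results of these data known. The strong list held the 30000 peaks of smallest p per library, with ties broken by fold and then by order in the deposited list. The tie at the list's end held 12354 peaks in Azin2-/- replicate 1 and 24019 in wild-type replicate 1, and left out 3 and 9 peaks of the locus. In Azin2-/- replicate 2 it held 12257, of which the 9357 kept include those at Pcdhgb4 and Pcdhgb7. Covered length was counted in bp over merged peaks. Gene spans came from RefSeq on GRCm38, without strand or exons. In the alpha and gamma clusters the variable end is the boundary the genes do not share, and for beta genes the lower coordinate was used. Reference starts came from RefSeq's promoter table, which matched 0 of the 58 clustered genes, so their promoter composition was not examined. Regions and gene loci were tested genome-wide with limma 3.58.1 in R 4.3.3 on log2 of cover scaled to equal totals, plus 200 bp for regions and 500 bp for loci, with Benjamini-Hochberg adjustment at 0.05. The fit was also run on simulated cover with planted changes. That cover was drawn around locus means, without the zeros common in these lists, so the run does not show how the fit behaves here. Other steps used Python 3.11.15. P-values measure only the spread between these libraries, which may be technical.

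Replicate numbers 1 and 2 occur in both genotypes. Deviations from the genotype means correlated at r = -0.04 for number 1 and 0.12 for number 2 over 11667 genes, so the numbers were not taken to pair libraries. Named were regions held by all libraries of 1 genotype and none of the other, the region of largest mean strong cover in a segment, genes with a strong peak at the variable end in at least 4 of 6 libraries, the C-type genes, Taf7, Slc25a2 and Diaph1, and the 2 genes of smallest p in each direction from other lists, of which 1 is not reported here. Further alpha, beta, gamma A and gamma B genes were named after their values were seen.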

Additional observations from a re-analysis of the deposited data

How the results depend on the processing

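The difference between genotypes (Azin2-/- minus wild-type) depended on how many peaks were used. For variable ends with a strong peak, the 10.7 genes became 1.33 with the 5000 strongest peaks, -1 with all deposited peaks and 3.33 with 1 kb on each side of the end, and the 4.33 gamma B genes became 0.667, 0.333 and 1. Gamma variable array cover of 6279 bp became 955.3 bp with the 5000 strongest. Gamma constant cover of -2159 bp became 0 bp with the 5000 strongest, -466 bp with 15000, -491.3 bp at a q of 0.05 or less and 473.7 bp at 0.01 or less. The variable-minus-constant difference of 15.7 percentage points became 1.09 and, at a q of 0.01 or less, 5.22. Merging peaks within 500 bp gave 223 regions in place of 810. Regions called by limma numbered 0, and 50 with 60000 peaks, 1 and 3 at a q of 0.05 and 0.01 or less, and 62 with no minimum cover. Gene loci called numbered 0, and 26 at a q of 0.01 or less, where clustered genes called higher numbered 15.

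Leaving out each library in turn gave 4.83 to 13.8 genes for all variable ends, 3.67 to 5.67 for gamma B, 1372 to 14770 bp for the whole window (10010 bp with all libraries), 3511 to 8445 bp for the gamma array, -3155 to -906.8 bp for its constant section, 10.2 to 20.8 points for variable against constant, and 0 calls each time. The whole-window value of 1372 bp is that without Azin2-/- replicate 1. With the replicate block, limma called 0 regions and 0 gene loci, with 2221 regions higher and 294 lower at an unadjusted p under 0.05, and 710 and 198 loci. Keeping or leaving out every peak tied at the list's end, chosen after seeing the data, changed none of these differences by more than the spread between libraries, although with tied peaks kept wild-type replicate 1 had a strong peak at 5 variable ends in place of 2. With them left out, Azin2-/- replicate 2 had 6 in place of 8, equal to wild-type replicate 2b, and 5 gamma B ends in place of 7. Read depth is not given, so no interval could be put on a pileup, and wild-type pileups of 3 or 4 limit what can be ranked there. The planned check of promoter composition was not run.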
